A study of Mus musculus with 18 samples.

Results

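The receptors, ligands and adaptors described here are 10 genes of the tumour necrosis factor (TNF) superfamily and its signalling: the receptors Tnfrsf13b (TACI) and Tnfrsf13c (BAFF-R), the ligands Lta, Ltb and Tnf, and the adaptors Traf1, Traf2, Traf3, Traf5 and Traf6. A gene was included when at least 1 probe set of the array table carried it as its single annotated symbol, which gave 9 of the 10 genes, from 15 probe sets, among 18193 genes with such a probe set. Traf3 is not analysed here. All 9 genes passed the filter on low signals and were tested among 11106 genes, and 14 of the 15 probe sets passed it.

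The RNA came from CD23+ B lymphocytes taken from the spleens of C57BL/6J mice, hybridised to Mouse Genome 430 2.0 arrays. CD23 is a low-affinity IgE receptor that marks follicular B cells. The 4 groups were anti-IgD after PF-303 (n = 5), anti-IgD after vehicle (n = 4), PBS after PF-303 (n = 5) and PBS after vehicle (n = 4). Anti-IgD crosslinks the B-cell antigen receptor in the animal, PBS is the saline given in its place, and PF-303 is an inhibitor of BTK, a kinase that relays the signal of that receptor. The mice received the drug or its vehicle 2 h before activation, and the cells were collected 2 h after it, so each value describes an early response. No age, sex or genetic alteration is used here, and nothing in the labels says whether the samples of a group came from separate mice. The p-values therefore describe only the variation among these samples, part of which may be technical.

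BAFF and APRIL are TNF-family ligands of B cells: TACI binds both, and BAFF-R binds BAFF. BAFF-R carries the survival signal of mature follicular B cells, and TACI takes part in antibody responses that do not need T cells and also restrains B-cell numbers. Lymphotoxin on the surface of B cells is a complex of the Lta and Ltb products, and in the spleen it maintains follicular dendritic cells and the shape of the follicle. TRAF proteins are the adaptors that bind the tails of such receptors and pass the signal to the canonical and noncanonical NF-kB pathways and to MAP kinases.

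The labelled cell type was checked against its markers. All 6 follicular B-cell markers with a probe set were above the filter level, and Cr2, a complement receptor of follicular and marginal zone B cells, averaged 2776, 2429.9, 2328 and 2641 signal units in anti-IgD with PF-303, anti-IgD with vehicle, PBS with PF-303 and PBS with vehicle. Fcer2a, which encodes CD23, averaged 2164, 1754, 2368 and 2512 units in the same order. Its fall on anti-IgD with vehicle is given below with those of other B-cell markers. Of 7 T-cell markers with a probe set, 5 passed the filter at low signals, with highest values of 27.2 units for Cd3g, 35.2 units for Cd3d, 45.6 units for Cd8a, 50.1 units for Lat and 57.7 units for Cd5. The other 2, Cd4 and Cd3e, never exceeded 3.55 and 12.5 units, under the filter level of 15.2. Macrophage and monocyte markers were present: Lyz2 averaged 1496 and 1594 units in the anti-IgD arrays with PF-303 and with vehicle, and 1321.5 and 1135 units in the corresponding PBS arrays. In 6 arrays, 2 each of anti-IgD with PF-303, PBS with PF-303 and PBS with vehicle, the hybridisation spike-ins were 2.08 to 3.32 times their median over all arrays, and the Gapdh 3' to 5' ratio, a sign of RNA quality, was 1.11 in 1 anti-IgD array with PF-303 and 1.22 in 1 PBS array with vehicle, against 0.698 to 0.826 in the other 16. Results that change when these arrays are left out are named where they occur.

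With vehicle both receptors, both lymphotoxin chains and Traf5 fell on anti-IgD, while Traf1 and, by less, Tnf rose. Traf2 and Traf6 did not pass the test. That made 7 of the 9 genes called, 2 higher and 5 lower, where a call is an adjusted p under 0.05 in limma's moderated test over all genes. Among all 11106 genes the comparison called 47.9%, 17.4% higher and 30.6% lower, so a call alone does not set these genes apart. The median log2 fold change of the 9 genes was -0.41, against -0.13 for all genes. In anti-IgD-treated mice, 7 of the 9 genes were called for PF-303 against vehicle, where 30.2% of all genes were called (19.8% higher and 10.4% lower). Tnfrsf13b, Tnfrsf13c, Lta, Ltb and Traf5 were higher with PF-303, and Tnf and Traf1 were lower. The median of the 9 genes was 0.43, against 0.08 over all genes. These comparisons share 4 arrays, those given anti-IgD after vehicle, so a low or high value there enters both with opposite signs. In PBS-treated mice no gene of the 9 was called by limma for PF-303 against vehicle, where 0.747% of all genes were called.

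**Figure D1:**
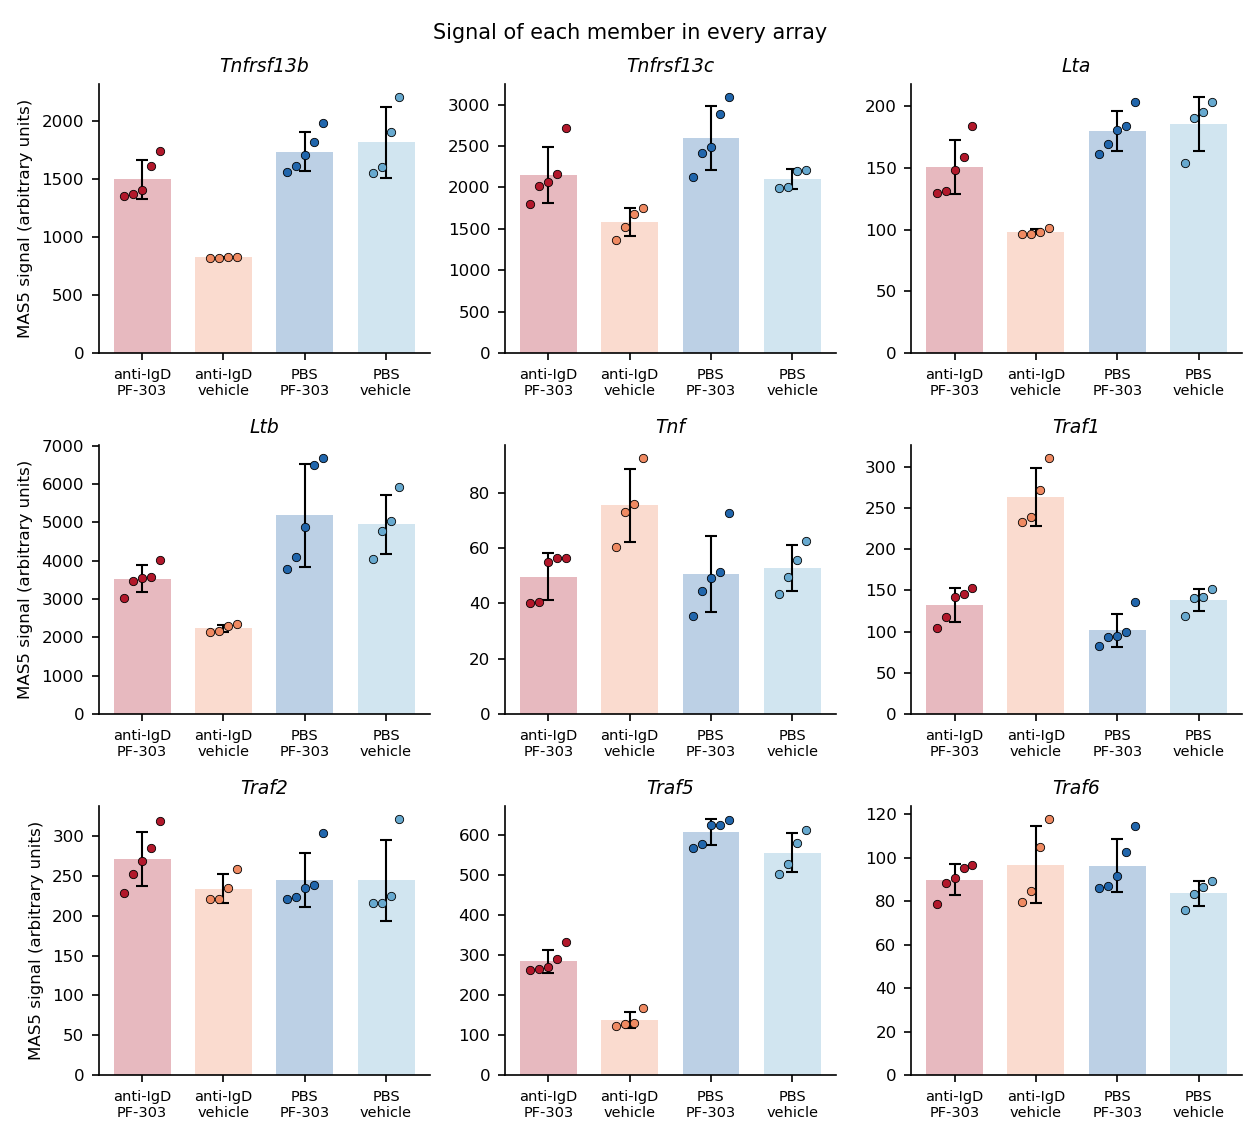
Signal of the 9 measured genes in each of the 18 arrays (points), with the group mean as a bar from 0 and the SD as a black error bar (n = 5 with PF-303 and 4 with vehicle). The vertical axis is the MAS5 signal in arbitrary units, shown for the probe set used per gene. Traf5 shows group means of 283, 137, 606 and 555 units from left to right, and the groups of Traf2 and Traf6 overlap.

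Tnfrsf13b encodes TACI. Its signals were 1610.3, 1369, 1403, 1740.4 and 1356 units in the 5 arrays of anti-IgD with PF-303, 826, 822, 826 and 822 units in the 4 of anti-IgD with vehicle, 1816, 1612, 1983, 1706 and 1555 units in the 5 of PBS with PF-303, and 1600.2, 1549.8, 1904 and 2203 units in the 4 of PBS with vehicle. The 4 arrays of anti-IgD with vehicle lay below every other array and within 5 units of each other, an SD of 2.45 units on a mean of 824 units. On anti-IgD with vehicle Tnfrsf13b fell by 1.11 ± 0.11 on the log2(signal + 16) scale (± SE, as for all log2 changes below; adjusted p = 2.1e-08), and 272 of the 11106 genes fell further. Under anti-IgD it was higher with PF-303 than with vehicle by 0.84 ± 0.10 (adjusted p = 2.4e-06). With PF-303 the corresponding change was -0.21 ± 0.10 (adjusted p = 0.098), with no call and overlapping groups, though 4 alternatives called it (adjusted p from 0.0088 to 0.35 over the alternatives). The response with PF-303 minus that with vehicle, tested as an interaction, was 0.90 ± 0.15 (adjusted p = 6.6e-04), so the fall was smaller with PF-303.

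Tnfrsf13c encodes BAFF-R. It gave 2014, 1799.8, 2068, 2716 and 2161 units in anti-IgD with PF-303, 1755, 1676, 1368 and 1524 units in anti-IgD with vehicle, 2416, 2123, 2886, 3089 and 2492 units in PBS with PF-303, and 1995, 2001, 2207 and 2197 units in PBS with vehicle. Again the anti-IgD arrays with vehicle were the lowest of all 18, but the gap was narrow, with 1755 units the highest of them and 1799.8 units the lowest of the rest. Tnfrsf13c fell by 0.41 ± 0.12 on anti-IgD with vehicle (adjusted p = 0.0085), and under anti-IgD it was higher with PF-303 by 0.43 ± 0.12 (adjusted p = 0.0070). With PF-303 its change on anti-IgD was -0.27 ± 0.11 (adjusted p = 0.061), which 4 alternatives called (adjusted p from 0.0036 to 0.63 over the alternatives). The interaction was not called (0.14 ± 0.17, 95% interval -0.21 to 0.48). The labels give each sample a position code, and with its row as a block both calls were lost: the log2 changes were -0.33 (adjusted p = 0.11) and 0.40 (adjusted p = 0.078), with adjusted p over all alternatives from 1.7e-04 to 0.11 and from 0.0010 to 0.078. Row C, which alone holds arrays of both groups of the drug comparison under anti-IgD (2 with PF-303 and 1 with vehicle), gave 0.45.

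Lta encodes lymphotoxin alpha, which is secreted alone or joins Ltb on the membrane. The gene gave 159, 149, 132, 184 and 130.0 units in anti-IgD with PF-303, 102, 98.0, 96.9 and 96.8 units in anti-IgD with vehicle, 184, 161, 203, 181 and 169.6 units in PBS with PF-303, and 190.1, 154, 203 and 195 units in PBS with vehicle. No array of anti-IgD with vehicle reached the lowest array of another group. The log2 change on anti-IgD with vehicle was -0.81 ± 0.10 (adjusted p = 1.1e-06), and under anti-IgD the gene was higher with PF-303 by 0.53 ± 0.10 (adjusted p = 2.5e-04). With PF-303 anti-IgD changed it by -0.24 ± 0.09 (adjusted p = 0.052), just outside the threshold, and 9 alternatives called it (adjusted p from 0.012 to 0.34 over the alternatives). Its interaction of 0.57 ± 0.14 was called (adjusted p = 0.012), and the call was lost with the position row as a block (0.51, adjusted p = 0.11) and with the 6 high spike-in arrays left out (0.56, adjusted p = 0.053), with adjusted p from 0.0041 to 0.11 over the alternatives.

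Ltb encodes lymphotoxin beta, the membrane anchor of the complex. It measured 3023, 3583, 4009.6, 3539 and 3477 units in anti-IgD with PF-303, 2291, 2179, 2144 and 2339.7 units in anti-IgD with vehicle, 4872, 3797, 6508, 6674 and 4094 units in PBS with PF-303, and 4049.8, 4775, 5934 and 5035 units in PBS with vehicle. All 4 anti-IgD arrays with vehicle were below all other arrays, and the 5 with PF-303 lay between them and most PBS arrays. The log2 change on anti-IgD was -1.13 ± 0.16 with vehicle (adjusted p = 3.7e-06) and -0.52 ± 0.14 with PF-303 (adjusted p = 0.0059). Under anti-IgD it was higher with PF-303 by 0.65 ± 0.15 (adjusted p = 0.0020). The interaction of 0.60 ± 0.21 was not called (adjusted p = 0.073), although its 95% interval of 0.17 to 1.04 lay above 0, and it was called with the 6 high spike-in arrays left out (0.71, adjusted p = 0.0080, from 0.0038 to 0.56 over the alternatives), with quantile normalization (0.55) and without any 1 of 3 PBS arrays (0.70, replicates 3 and 4 with PF-303 and 1 with vehicle). Without the 6 high spike-in arrays the change on anti-IgD with PF-303 was -0.26 and no longer called (adjusted p = 0.052, from 3.9e-06 to 0.052 over the alternatives). The drug effect under anti-IgD lost its call with the position row as a block (0.43, adjusted p = 0.19, from 1.2e-05 to 0.19 over the alternatives), and it was 0.47 within row C.

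Tnf encodes the inflammatory cytokine TNF. Its signals were 40.4, 54.9, 56.3, 56.6 and 40.2 units in anti-IgD with PF-303, 73.2, 92.5, 75.8 and 60.4 units in anti-IgD with vehicle, 49.2, 35.4, 72.5, 44.4 and 51.5 units in PBS with PF-303, and 49.4, 43.5, 62.7 and 55.7 units in PBS with vehicle. Under anti-IgD the PF-303 arrays were all below the vehicle arrays, but with vehicle 1 PBS array (62.7 units) exceeded 1 anti-IgD array (60.4 units). Tnf rose by 0.41 ± 0.15 on anti-IgD with vehicle (adjusted p = 0.034), and under anti-IgD its difference between PF-303 and vehicle was -0.48 ± 0.15 (adjusted p = 0.016). With PF-303 the change on anti-IgD was -0.01 ± 0.14, and the interaction was -0.41 ± 0.21 (adjusted p = 0.23). The rise on anti-IgD was lost without replicates 1, 2 or 4 of anti-IgD with vehicle or replicates 1 or 2 of PBS with vehicle (0.32 to 0.42, adjusted p = 0.055 to 0.12), with the position row as a block (0.40, adjusted p = 0.085) and with no filter on low signals (0.41, adjusted p = 0.066), and its adjusted p ranged from 0.0069 to 0.12 over all alternatives. The difference with PF-303 was lost without replicate 2 of anti-IgD with vehicle (-0.39, adjusted p = 0.070) and with the position row as a block (-0.46, adjusted p = 0.078), with adjusted p from 0.0044 to 0.078 over the alternatives.

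Other cells of the spleen also make these ligands. The summed signal of 7 T-cell markers spanned 71.4 to 181 units in anti-IgD with PF-303, 109 to 153 units in anti-IgD with vehicle, 62.2 to 144 units in PBS with PF-303 and 70.5 to 145 units in PBS with vehicle. Of the 5 tested, 1, Cd5, rose on anti-IgD, by 0.90 with vehicle (adjusted p = 0.0021) and by 0.72 with PF-303 (adjusted p = 0.0078). Of 3 tested NK-cell markers, 1, Prf1, rose on anti-IgD with PF-303 (0.37, adjusted p = 0.025). Of 2 tested neutrophil markers, 1, S100a8, did so (1.07, adjusted p = 0.041). With vehicle no NK-cell or neutrophil marker was called on anti-IgD. For 5 macrophage and monocyte markers the sums were 1384 to 2965 units, 827 to 2894 units, 1229 to 2225 units and 1376 to 1946 units in the same 4 groups. Their Cd14 averaged 102, 278, 25.6 and 79.1 units, and rose on anti-IgD by 1.52 with vehicle (adjusted p = 0.027) and by 1.57 with PF-303 (adjusted p = 0.017). Csf1r, Adgre1, Lyz2 and Cd68 were called on anti-IgD neither with vehicle nor with PF-303. Csf1r changed by -0.26 with vehicle and -0.29 with PF-303, and Lyz2 by 0.33 and 0.17. The part of such cells in the ligand values was not tested. Among the B-cell markers 4 of 6 fell on anti-IgD with vehicle, where 30.6% of all genes did. The falls were 1.09 for Cd79b (adjusted p = 4.0e-04), 0.99 for Cd79a (adjusted p = 0.021), 0.73 for Pax5 (adjusted p = 7.7e-05) and 0.51 for Fcer2a (adjusted p = 2.0e-04). Ms4a1 and Cr2 were not called. The summed signal of the 6 markers spanned 16440.3 to 24508 units, 11709 to 14222 units, 16497 to 29141 units and 16418 to 30859 units in the 4 groups in the same order. Its part in the falls of the receptors and lymphotoxins was not tested. Of 5 markers of stroma and vessels, Col1a1, Col3a1 and Cdh5 failed the filter and Madcam1 was not called, while Pecam1, which some blood cells also carry, averaged 129, 76.5, 232 and 232 units in the 4 groups and fell by 1.38 on anti-IgD with vehicle (adjusted p = 8.2e-07). Its part was not tested either. In bulk RNA, fewer cells of a type and less RNA per cell cannot be told apart.

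The lymphotoxin and TNF genes are neighbours: Ltb, Tnf and Lta lie within 11.1 kb on mouse chromosome 17, in an interval that also holds 2 microRNA genes. Lta and Ltb fell on anti-IgD with vehicle while Tnf rose. The RefSeq promoter windows of the 3 genes (GRCm38.p6, 250 bases before to 50 bases after the start of the gene, 5' to 3' on the gene's strand) are shown because the genes sit together and moved in different directions. They are chr17:35194257-35194556 on the plus strand for Ltb, chr17:35201958-35202257 on the minus strand for Tnf and chr17:35205302-35205601 on the minus strand for Lta, and capitals mark a match to the NF-kB consensus.
Ltb: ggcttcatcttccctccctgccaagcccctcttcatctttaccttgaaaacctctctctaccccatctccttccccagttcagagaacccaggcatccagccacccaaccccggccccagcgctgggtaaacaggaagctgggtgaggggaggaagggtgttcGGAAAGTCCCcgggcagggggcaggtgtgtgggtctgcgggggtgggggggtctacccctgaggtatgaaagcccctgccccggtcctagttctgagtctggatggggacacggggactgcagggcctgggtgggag
Tnf: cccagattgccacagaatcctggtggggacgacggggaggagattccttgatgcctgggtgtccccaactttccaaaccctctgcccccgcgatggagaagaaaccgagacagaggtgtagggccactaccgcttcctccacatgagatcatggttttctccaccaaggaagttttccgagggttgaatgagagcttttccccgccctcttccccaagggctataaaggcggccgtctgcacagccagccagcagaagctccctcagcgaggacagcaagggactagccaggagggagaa
Lta: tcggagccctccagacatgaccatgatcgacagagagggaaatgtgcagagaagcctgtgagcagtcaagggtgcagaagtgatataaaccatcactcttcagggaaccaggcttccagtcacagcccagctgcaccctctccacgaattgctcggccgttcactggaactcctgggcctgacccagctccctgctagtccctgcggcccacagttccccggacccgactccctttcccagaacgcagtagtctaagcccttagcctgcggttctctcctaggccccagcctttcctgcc
The match in Ltb was on the opposite strand and began 87 bases before the start of the gene. It was the only match among the 9 measured genes, and 4.51% of 32851 RefSeq promoter windows hold one on either strand. AP-1 (TGANTCA), EGR (GCGNGGGCG) and E-box (CACGTG) motifs, searched on both strands, were in none of the 9 windows, against 7.81%, 5.55% and 7.15% of all windows. These are letters in a window of 300 bases, not measured binding.

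Traf5 encodes an adaptor that binds CD40 and other receptors of the family beside TRAF2. The gene gave 331, 270.2, 288, 265 and 263 units in anti-IgD with PF-303, 128, 168, 130.3 and 124 units in anti-IgD with vehicle, 625, 576, 625, 638 and 566 units in PBS with PF-303, and 503, 527, 579 and 612 units in PBS with vehicle. The PBS groups overlapped, the anti-IgD groups did not overlap each other or the PBS arrays, and the PF-303 arrays of anti-IgD took an intermediate place. Traf5 fell by 1.90 ± 0.09 on anti-IgD with vehicle (adjusted p = 5.5e-13), and only 9 of the 11106 genes fell further. With PF-303 it fell by 1.06 ± 0.08 on anti-IgD (adjusted p = 1.7e-09), and the interaction was 0.84 ± 0.13 (adjusted p = 2.9e-04). Under anti-IgD it was higher with PF-303 by 0.97 ± 0.09 (adjusted p = 6.0e-08), and anti-IgD with PF-303 against PBS with vehicle gave -0.93 ± 0.09 (adjusted p = 5.5e-08).

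These Traf5 values come from probe set 1448861_at. The other Traf5 probe set, 1447682_x_at, spanned 2.61 to 64.3 units and was called in no comparison (anti-IgD against PBS with vehicle, -0.24 ± 0.25). Averaging both probe sets gave -1.07 on anti-IgD with vehicle (adjusted p = 1.1e-06) and an interaction of 0.31 (adjusted p = 0.29, from 5.9e-05 to 0.29 over the alternatives), which was not called.

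The start of Traf5 carries no match to any of the 4 motifs in its window at chr1:192092550-192092849 (minus strand, GRCm38.p6), and neither does that of Tnfrsf13b at chr11:61126505-61126804 (plus strand). Both are shown as the windows of the receptor and the adaptor with the largest interactions.
Traf5: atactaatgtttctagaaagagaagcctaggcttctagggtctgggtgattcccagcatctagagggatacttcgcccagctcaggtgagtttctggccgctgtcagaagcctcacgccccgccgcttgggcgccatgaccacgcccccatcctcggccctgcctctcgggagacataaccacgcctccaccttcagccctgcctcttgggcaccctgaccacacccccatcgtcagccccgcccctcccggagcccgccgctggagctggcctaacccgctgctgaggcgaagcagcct
Tnfrsf13b: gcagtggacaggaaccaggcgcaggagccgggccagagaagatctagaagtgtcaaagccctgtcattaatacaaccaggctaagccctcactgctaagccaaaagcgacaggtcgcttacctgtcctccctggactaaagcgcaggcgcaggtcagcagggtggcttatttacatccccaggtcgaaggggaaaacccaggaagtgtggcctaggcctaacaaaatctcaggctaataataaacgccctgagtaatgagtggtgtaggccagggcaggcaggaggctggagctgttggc

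Traf1 encodes an adaptor without the RING domain of its relatives, known as a target gene of NF-kB. Probe set 1445452_at, the one used for the gene, gave 118, 142, 152, 104 and 146 units in anti-IgD with PF-303, 271, 239, 310.2 and 232 units in anti-IgD with vehicle, 94.8, 136, 93.9, 82.5 and 99.6 units in PBS with PF-303, and 141, 151, 142 and 119 units in PBS with vehicle. The 4 anti-IgD arrays with vehicle were above all 14 others. Traf1 rose by 0.85 ± 0.13 on anti-IgD with vehicle (adjusted p = 1.2e-05), and under anti-IgD its difference between PF-303 and vehicle was -0.91 ± 0.12 (adjusted p = 8.0e-06). The rise with PF-303 was 0.34 ± 0.12 (adjusted p = 0.026), and that call did not hold with the 6 high spike-in arrays left out (0.22, adjusted p = 0.26), with the position row as a block (0.32, adjusted p = 0.11) and without any 1 of 6 arrays (the anti-IgD replicates 2, 3 and 5 and the PBS replicates 1, 3 and 4, both with PF-303), with adjusted p from 8.6e-04 to 0.26 over the alternatives. The interaction was -0.51 ± 0.18 (adjusted p = 0.069) and was called with an offset of 64 (-0.44), with the mean over probe sets (-0.48) and without replicate 4 of PBS with PF-303 (-0.57).

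The second Traf1 probe set, 1423602_at, gave 160.1, 167, 142, 179 and 124 units in anti-IgD with PF-303, 243, 178, 243 and 273 units in anti-IgD with vehicle, 102, 123, 116, 105 and 103 units in PBS with PF-303, and 118, 127, 119.7 and 109 units in PBS with vehicle. Apart from 1 array at 124 units, the anti-IgD arrays of both groups exceeded the highest PBS array, at 127 units. In a fit over all 24951 probe sets that passed the filter, it rose by 0.88 ± 0.12 on anti-IgD with vehicle (adjusted p = 2.2e-06) and by 0.43 ± 0.10 with PF-303 (adjusted p = 0.0032). Under anti-IgD the difference of 1423602_at between PF-303 and vehicle was -0.55 ± 0.11 (adjusted p = 7.3e-04), with overlapping groups. For 1445452_at it was -0.91 ± 0.12, without overlap. The 2 probe sets also differed in the comparison of anti-IgD with PF-303 against PBS with vehicle. There 1423602_at was called (0.33 ± 0.11, adjusted p = 0.034) and 1445452_at was at -0.06 ± 0.12. How far Traf1 remained above the PBS level with PF-303 therefore depends on the probe set.

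Traf2 and Traf6 were called in no comparison. Traf2, which recruits the cIAP ubiquitin ligases, averaged 271 ± 34.1, 234 ± 18.2, 245 ± 33.9 and 245 ± 51.4 units in anti-IgD with PF-303, anti-IgD with vehicle, PBS with PF-303 and PBS with vehicle (SD, n = 5, 4, 5 and 4). The 95% interval of its log2 change on anti-IgD with vehicle was -0.29 to 0.21. Traf6, the ubiquitin ligase that activates TAK1 and IKK below CD40 and Toll-like receptors, averaged 89.8 ± 7.20, 96.7 ± 17.7, 96.2 ± 12.2 and 83.6 ± 5.71 units in the same groups, and its interval was -0.07 to 0.40. Of the 4 other Traf6 probe sets, 1446940_at stayed between 0.693 and 2.76 units and failed the filter, and the other 3 were called in no comparison. Leaving out the 6 arrays of high spike-in signal brought Traf2 under the threshold for PF-303 against vehicle under anti-IgD (0.24, adjusted p = 0.043, from 0.043 to 0.67 over the alternatives). Traf2 was also called there on anti-IgD with PF-303 (0.27, adjusted p = 0.034, from 0.034 to 0.64) and for anti-IgD with PF-303 against PBS with vehicle (0.32, adjusted p = 0.039, from 0.039 to 0.63).

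**Figure D2:**
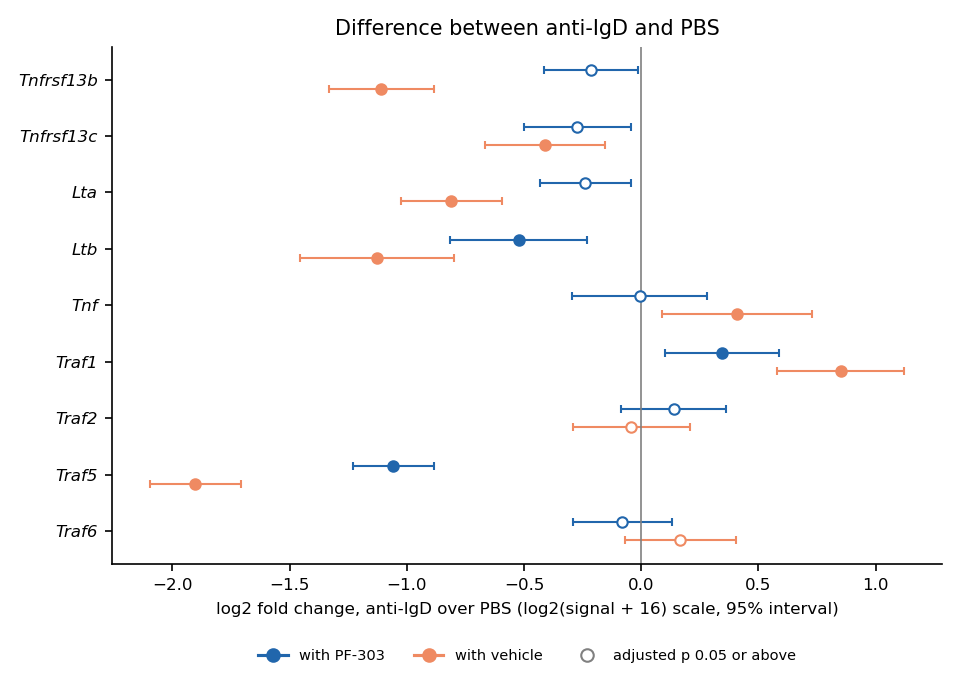
Log2 fold change of anti-IgD over PBS for each gene with PF-303 (blue) and with vehicle (orange), with 95% intervals; filled points have an adjusted p under 0.05. For Tnfrsf13b, Lta and Traf5, whose interactions were called, the change lies nearer to 0 with PF-303.

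Set against the whole array, the response to anti-IgD that was left with PF-303 called 3 of the 9 genes (Traf5 and Ltb lower, Traf1 higher), where 33.8% of all genes were called, 14.7% higher and 19.1% lower. Their median was -0.21, against -0.05 over all genes. With the high spike-in arrays left out, Traf5 and Traf2 were the genes called. Without the 2 arrays of high Gapdh ratio, Tnfrsf13b and Lta were added. Without replicate 4 of the anti-IgD arrays Tnfrsf13b, Tnfrsf13c and Lta were also called, and without replicate 2 of the PBS arrays Tnfrsf13c and Lta were. The interaction called 3 of 9 (Tnfrsf13b, Traf5 and Lta, all higher), against 9.78% of all genes, 6.66% higher and 3.12% lower. Without replicate 4 of PBS with PF-303, Ltb (higher) and Traf1 (lower) were also called. In the comparison of anti-IgD with PF-303 against PBS with vehicle, 3 of 9 were called, all lower, against 25.5% of all genes, 12.0% higher and 13.4% lower. They were Traf5, Ltb (-0.48 ± 0.15, adjusted p = 0.021) and Lta (-0.28 ± 0.10, adjusted p = 0.043). Tnfrsf13b was close to Lta at -0.27 ± 0.10 (adjusted p = 0.060) but not called. It was called lower with quantile normalization (-0.35, adjusted p = 0.0051), with the spike-in covariate (-0.28, adjusted p = 0.0061) and in 4 of the fits that left out 1 array. The Lta call was marginal: it was lost in 9 of the 18 fits that left out 1 array and under 9 other alternatives, among them the replicate block (-0.25, adjusted p = 0.058), the position row as a block (-0.25, adjusted p = 0.074), quantile normalization (-0.22, adjusted p = 0.12) and arrays shifted to one median (-0.22, adjusted p = 0.15). With the high spike-in arrays left out, Lta (-0.15, adjusted p = 0.46) and Ltb (-0.31, adjusted p = 0.050) were not called and Traf2 was. Ltb was also lost without replicate 1 of the anti-IgD arrays (-0.43, adjusted p = 0.052). With every array shifted to one median, the share of higher genes among those called here was 59.9% in place of 47.2%. Traf5 alone was called when replicate 3 of PBS with vehicle was left out or without the 2 arrays of high Gapdh ratio, and without those 2 arrays Ltb was at -0.41 (adjusted p = 0.093, from 2.6e-05 to 0.093 over the alternatives) and Lta at -0.27 (adjusted p = 0.091, from 0.010 to 0.46).

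PF-303 given before PBS called 0 of the 9 genes by limma, and 0.747% of all genes, 0.0720% higher and 0.675% lower. Medians were 0.01 for the 9 genes and 0.01 for all genes. The widest differences were Traf1 at -0.41 ± 0.12 (adjusted p = 0.16) and Tnfrsf13c at 0.30 ± 0.12 (adjusted p = 0.34), whose 95% intervals of -0.66 to -0.15 and 0.05 to 0.54 did not reach 0. Traf1 averaged 101 ± 20.3 units in PBS with PF-303 and 138 ± 13.7 units in PBS with vehicle, with overlapping arrays, and its second probe set was at -0.10 ± 0.11. For Traf5 the interval was -0.06 to 0.31 and for Ltb -0.27 to 0.35, so differences of those sizes remain possible.

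**Figure D3:**
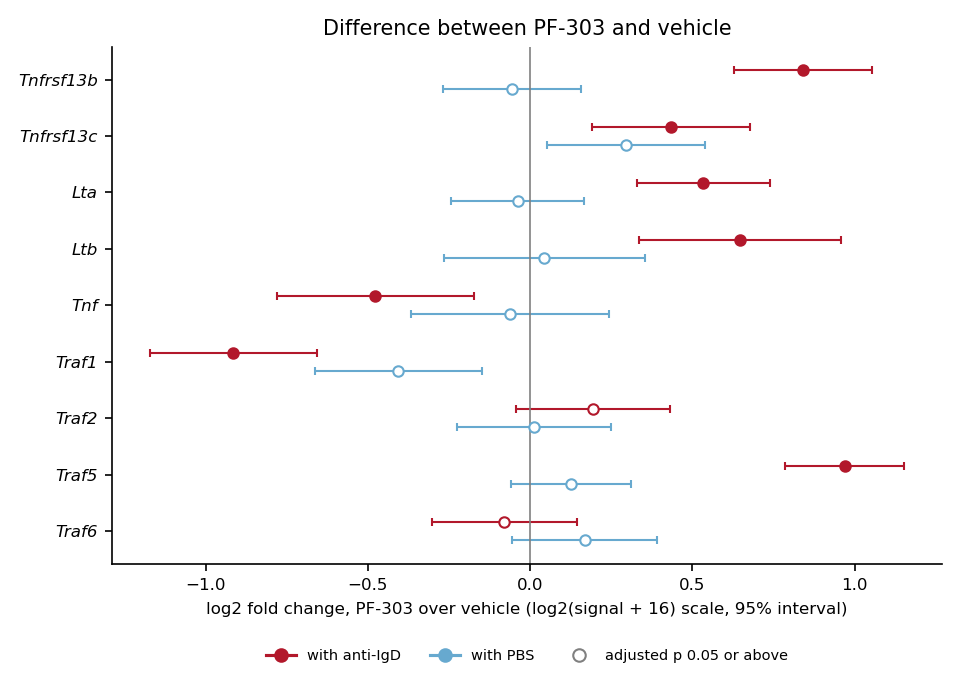
Log2 fold change of PF-303 over vehicle for each gene with anti-IgD (red) and with PBS (light blue), with 95% intervals; filled points have an adjusted p under 0.05. Under anti-IgD 5 genes are higher, from 0.43 for Tnfrsf13c to 0.97 for Traf5, and Tnf and Traf1 are lower, while no gene is called with PBS.

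For the 4 genes whose highest and lowest group means differed by at least 1 on the log2 scale, the genes with the most similar profile over the 4 group means (18 arrays) were sought by the root mean square difference of the centred means. Nearest to Tnfrsf13b were Sh2d3c at 0.016, Nemp2 at 0.025 and Ets1 at 0.029. Syne2 at 0.0055, Uba7 at 0.010 and Dpp4 at 0.015 came nearest to Ltb. The nearest to Traf5 were Calhm2 at 0.052, S1pr4 at 0.056 and Tmem71 at 0.071, and S1pr4, a sphingosine-1-phosphate receptor, changed by -1.97 on anti-IgD with vehicle. Traf1 was closest to Nrp at 0.055, Twsg1 at 0.058 and Rcc1 at 0.071.

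The other genes of the pathway were taken from 7 lists with 80 genes, of which 57 were tested. On anti-IgD with vehicle 7 of the 57 were higher and 26 lower, beside 17.4% and 30.6% of all genes, with a median of -0.22 against -0.13 for all genes. For PF-303 against vehicle, 12 were higher and 2 lower under anti-IgD, beside 19.8% and 10.4% of all genes, with medians of 0.11 and 0.08, and 1, Tifa, was higher with PBS. The lists were drawn up with earlier results of these data known.

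Of the ligands and receptors nearest to the 9 genes, Tnfsf13b, which encodes BAFF, lay near the filter level at 10.7 ± 5.56, 14.8 ± 4.34, 13.2 ± 4.29 and 10.5 ± 7.86 units in anti-IgD with PF-303, anti-IgD with vehicle, PBS with PF-303 and PBS with vehicle (SD, n = 5, 4, 5 and 4), and was called in no comparison. Among 5 tested genes listed with the TNF and lymphotoxin receptors, Tnfrsf1b, the second TNF receptor, rose on anti-IgD both with PF-303 (0.54 ± 0.13, adjusted p = 0.0032) and with vehicle (0.59 ± 0.15, adjusted p = 0.0025). Its interaction was -0.05 ± 0.20. Btla, an inhibitory receptor in the same list but not itself a TNF or lymphotoxin receptor, fell both with PF-303 by 0.33 ± 0.10 (adjusted p = 0.013) and with vehicle by 0.48 ± 0.11 (adjusted p = 9.9e-04). The interaction of Btla was not called (0.16 ± 0.15). Of 9 tested members of the remaining TNF receptor family, 2 rose and 5 fell on anti-IgD with vehicle (all genes, 17.4% and 30.6%), and 1 of them, Tnfrsf18, was higher with PF-303 under anti-IgD (all genes, 19.8%). The median of these 9 was -0.44 on anti-IgD with vehicle. Relt averaged 51.9 and 41.7 units in anti-IgD with PF-303 and with vehicle, and 92.0 and 98.6 units in the corresponding PBS groups. Tnfrsf21 averaged 45.6 and 64.7 units in anti-IgD with PF-303 and with vehicle, and 21.2 and 30.7 units in the corresponding PBS groups. Cd40, which receives T-cell help, averaged 437 ± 69.1 and 359 ± 34.6 units in anti-IgD with PF-303 and with vehicle, and 737 ± 124 and 667 ± 58.1 units in PBS with PF-303 and with vehicle. It fell on anti-IgD by 0.73 ± 0.11 with PF-303 (adjusted p = 1.8e-05) and by 0.86 ± 0.12 with vehicle (adjusted p = 5.1e-06), and neither the drug effect under anti-IgD (0.26 ± 0.12, adjusted p = 0.097) nor the interaction (0.13 ± 0.17) was called. Of 3 tested other ligands, Tnfsf10 (TRAIL) fell by 0.64 ± 0.18 with vehicle (adjusted p = 0.0052).

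Among 14 tested genes of other TRAFs and TRAF-binding proteins, 9 fell and 1, Tank, rose on anti-IgD with vehicle, where 30.6% of all genes fell and 17.4% rose, and 6 were higher with PF-303 under anti-IgD, where 19.8% of all genes were. Their medians were -0.44 on anti-IgD and 0.24 for the drug, against -0.13 and 0.08 over all genes. Tifa, which links upstream signals to TRAF6, averaged 145 ± 11.2 and 76.5 ± 6.54 units in anti-IgD with PF-303 and with vehicle, and 271 ± 28.3 and 200.4 ± 19.5 units in PBS with PF-303 and with vehicle. It fell on anti-IgD by 1.23 ± 0.09 with vehicle (adjusted p = 4.9e-10) and was the only gene of the 7 lists called for PF-303 with PBS (0.41 ± 0.09, adjusted p = 0.028). Traf3ip3 fell by 1.22 ± 0.11 (adjusted p = 4.5e-09) and Traf3ip2 by 0.65 ± 0.11 (adjusted p = 5.5e-05), and both had called interactions, of 0.76 ± 0.14 (adjusted p = 0.0021) and 0.63 ± 0.15 (adjusted p = 0.011). Of 5 tested noncanonical NF-kB genes, Relb, a subunit of that pathway, rose by 0.66 ± 0.07 (adjusted p = 1.5e-07) and Map3k14, which encodes the kinase NIK, fell by 0.58 ± 0.15 (adjusted p = 0.0034). Under anti-IgD the difference of Relb between PF-303 and vehicle was -0.51 ± 0.07 (adjusted p = 8.4e-06).

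Of 20 tested genes of the branch through TRAF6, TAK1 and IKK, 2 rose and 9 fell on anti-IgD with vehicle, beside 17.4% and 30.6% of all genes, and the median of -0.11 was close to the -0.13 of all genes. Tnfaip3, which encodes the deubiquitinase A20 that limits this branch, averaged 251 ± 28.0 and 637 ± 98.6 units in anti-IgD with PF-303 and with vehicle, and 238 ± 39.4 and 276 ± 16.8 units in PBS with PF-303 and with vehicle. It rose by 1.15 ± 0.12 with vehicle (adjusted p = 5.3e-08) and changed by 0.08 ± 0.11 with PF-303, an interaction of -1.07 ± 0.16 (adjusted p = 3.0e-04). Tnip1, a partner of A20, fell by 0.64 ± 0.10 (adjusted p = 1.7e-05), Ikbkg, the regulatory subunit of IKK, by 0.61 ± 0.10 (adjusted p = 1.6e-05), and Rnf31, a subunit of the linear ubiquitin ligase, by 0.58 ± 0.10 (adjusted p = 5.5e-05), all with vehicle.

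**Figure D4:**
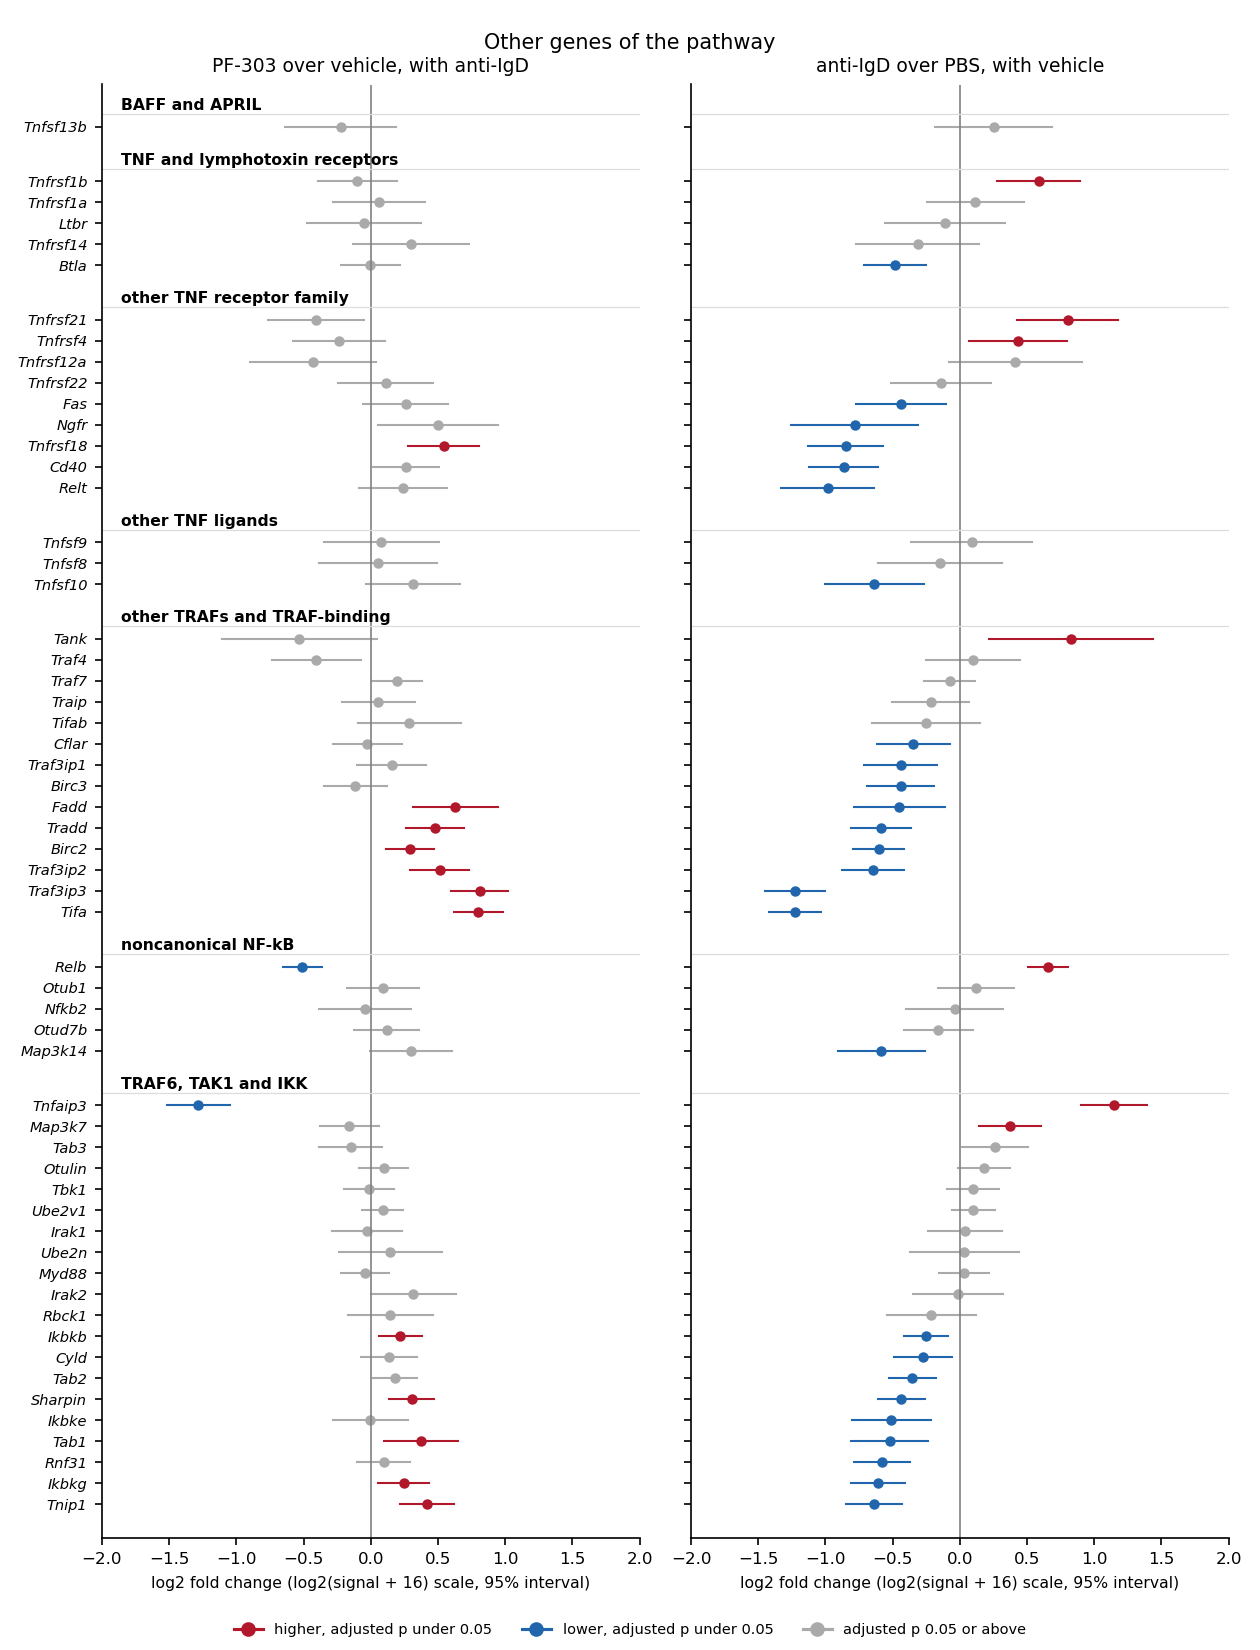
Log2 fold changes with 95% intervals of the 57 tested pathway genes by list, for PF-303 over vehicle with anti-IgD (left) and anti-IgD over PBS with vehicle (right). Red points are higher and blue points lower at an adjusted p under 0.05, and Tnfaip3 has the lowest value on the left (-1.28) and the highest on the right (1.15).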

How the data were processed

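RNA of 18 samples was hybridised to Mouse Genome 430 2.0 arrays from 150 ng of total RNA each, per the labels' protocols. The deposited values are MAS5 intensities per probe set on a linear scale, per the submitters' processing notes; the MAS5 version is not given in the sources used here. All arrays had a trimmed mean near 99.96, so each had been scaled to one level and a change is relative to the rest of the array. MAS5 subtracts mismatch signal, which makes values near background noisy, and the number of arrays limits the precision.

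Signals were taken as log2(signal + 16), which shrinks the changes of weak genes. Probe sets above 15.2, the median of all signals, in at least 4 arrays were kept, the probe set with the highest mean stood for its gene, and 11106 genes were fitted with limma 3.58.1 in R 4.3.3 (lmFit, eBayes with trend), all 18 arrays in 1 fit with 6 contrasts. P-values are two-sided and Benjamini-Hochberg adjusted over all genes, with calls under 0.05. The fit was tested on simulated data with independent noise for each gene and array. Such data cannot show how it handles differences shared within arrays. Platform symbols were updated through a RefSeq gene table, in which 204 probe sets had no match. No arrays held identical values. Replicate numbers were not used as pairs in the main fit.

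All 10 genes are named. Of each pathway list no more than 3 called rises and 3 called falls on anti-IgD with vehicle are named. Not every called gene within that number is named, so the named genes are a partial choice. Any list gene called for PF-303 with PBS is named, as are the 3 most similar genes for members with a range of at least 1. The genes and lists were chosen with earlier results of these data known. Alternatives covered the offset, filter, scaling, probe set choice, blocks, spike-in signal and each left-out array.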

Additional observations from a re-analysis of the deposited data

Results flagged for a closer look

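In 3 of the 36 groups of 4 or 5 signals tested, 1 array stood apart from the rest by Dixon's criterion, and chance flags about 1 group in 20. Traf2 gave 304.3 units in replicate 4 of PBS with PF-303, against 222 to 239 units in the other 4, and 321.5 units in replicate 3 of PBS with vehicle, against 216 to 225 units in the other 3. Both of these arrays also had a high spike-in signal, 2.19 and 2.08 times the median over arrays, and with all 6 such arrays left out Traf2 was called in 3 comparisons, for PF-303 against vehicle under anti-IgD at 0.24 (adjusted p = 0.043). Traf5 gave 167.8 units in replicate 2 of anti-IgD with vehicle, against 124 to 130.3 units in the other 3. Leaving out 1 array at a time kept its log2 change on anti-IgD with vehicle between -1.99 and -1.85.

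The response to anti-IgD differed between PF-303 and vehicle, by the interaction term of the limma fit, for Tnfrsf13b (0.90, adjusted p = 6.6e-04), Traf5 (0.84, adjusted p = 2.9e-04) and Lta (0.57, adjusted p = 0.012). In each case the change on anti-IgD was less negative with PF-303 than with vehicle.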

How the results depend on the processing

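No member's called change reversed under any alternative; 46 calls were lost and 34 gained over all settings and comparisons, while 1693 values kept their side of the threshold. Testing every probe set called 10030, 6487, 141, 6682 and 5228 features for anti-IgD with vehicle, PF-303 with anti-IgD, PF-303 with PBS, anti-IgD with PF-303, and anti-IgD with PF-303 against PBS with vehicle, in place of 5322, 3352, 83, 3755 and 2828 genes, as 24951 features were tested. With the position row as a block, PF-303 with anti-IgD called 4 members and 1725 genes, PF-303 with PBS 42 genes and the interaction 291 genes in place of 1086. For PF-303 with PBS the gene count was 35 with arrays shifted to one median, 28 with only its 2 groups in the fit, 154 with the spike-in covariate, 46 without arrays of high spike-in signal and 42 to 108 with 1 array left out, with 42 and 52 lacking replicate 4 or 1 of PBS with PF-303 and 49 lacking replicate 1 of PBS with vehicle. The interaction called 715 genes both with shifted arrays and without arrays of high spike-in signal. Anti-IgD with PF-303 called 6 members with the spike-in covariate, 5 with quantile normalization, 5 without arrays of high Gapdh ratio (chosen after seeing the data) and 2 to 6 with 1 array left out. The interaction called 3 to 5 members with 1 array left out, and anti-IgD with PF-303 against PBS with vehicle called 1 to 4, and 1 without arrays of high Gapdh ratio. For these shifts in member counts, the counts over all genes in the same fits are not given. They are therefore not read as results about the members. The cause of these shifts was not tested. Same-numbered samples of different groups correlated weakly (mean r 0.029 over 24 pairs, 7 over 0.1). Pairs with different numbers had a mean r of -0.0058 over 97 pairs, 18 over 0.1. A weak correlation cannot show that the samples were unpaired, and the main fit used no pairing. With the replicate block the 6 comparisons called 7, 7, 0, 4, 3 and 2 members, beside 5195, 3361, 116, 3935, 982 and 2905 of all 11106 genes. Signals near 15.2, such as those of Tnfsf13b, limit what can be seen.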
